A study of Mus musculus with 28 samples.

Results

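The liver response of male mice to 8 weeks of receptor activation under the high corn oil regimen was described across 10554 genes, 43.6% of the 24197 genes tabulated. These genes were chosen by level, with at least 1 FPKM (fragments per kilobase of gene, scaled to library size) in either the TCPOBOP or the vehicle group. TCPOBOP, a synthetic bis(dichloropyridyloxy)benzene, is an agonist ligand of the mouse constitutive androstane receptor (CAR, gene Nr1i3). The mice were outbred CD-1 males aged 15 to 16 weeks, 3 given TCPOBOP and 3 given vehicle. Both groups were injected intraperitoneally with 20 µl of corn oil per g of body weight holding 2% DMSO at the start, and weekly from day 7 with oil holding 0.67% DMSO. The TCPOBOP mice received 3 mg/kg at the start and 1 mg/kg at each later injection. All libraries were stranded, polyadenylated RNA of liver nuclei, 1 liver per library, from mice killed between late morning and noon. Beside them stand 8-week males given 4 µl of oil per g with 10% DMSO, namely 4 TCPOBOP mice (3 then 1.5 mg/kg, aged 15 to 16 weeks) and 4 on vehicle for 4 to 8 weeks, of which 2 were 11 to 12 and 2 were 15 to 16 weeks old. Mice of each sex aged 9 to 10 weeks complete the 28 libraries of 8 groups. They were studied 2 weeks after 4 µl of oil per g with 10% DMSO. In each sex 4 were given TCPOBOP at 3 mg/kg and 3 were given vehicle. Oil volume, DMSO, the later dose and the library series named in the sample titles all differ between both 8-week regimens, as do age and duration for part of the vehicle mice, and these cannot be told apart.

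CAR is a nuclear receptor that sits in the hepatocyte cytoplasm with chaperones and moves to the nucleus when activated, where it binds DNA with its partner RXR. It is known above all for inducing enzymes that oxidise and conjugate foreign chemicals and steroids. In mice TCPOBOP is also known to enlarge the liver and drive hepatocyte division.

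The level of a gene is given throughout as the authors' pooled FPKM, 1 value per group, so no spread between mice can accompany it, and sequencing depth is unknown. Changes are log2 ratios of the TCPOBOP over the vehicle value after adding 0.1 FPKM to each, which understates the change of low genes. A gene is said to rise or fall where the authors' edgeR adjusted p, in the authors' deposited table, was under 0.05 on 3 against 3 mice. The tissue was liver by its markers: Alb, which encodes albumin, had 4555 FPKM in vehicle against 4881 FPKM in TCPOBOP mice, and Hnf4a, a hepatocyte transcription factor, at 47.6 and 34.9 FPKM. Of the 15 hepatocyte markers only Apoa1 rose and none fell, with a summed level of 14060 against 18880 FPKM. In these whole-liver nuclei, fewer cells of a type and less RNA per cell cannot be told apart. The lowest gene inside the level limit was Zfp119a, at 1.0003 FPKM in its higher group, and the highest outside was Inadl, at 0.99908 FPKM.

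TCPOBOP mice differed from vehicle mice at 1180 genes. Of the 10554 genes 801 rose, or 7.59%, and 379 fell, or 3.59%. By the ratio alone 434 genes were at least 2-fold higher and 404 at least 2-fold lower, a split that became 538 and 321 once the median log2 ratio of -0.09 was set to 0. Among the genes that passed the test, 388 rose and 215 fell by at least 2-fold, and 65 rose and 10 fell by at least 8-fold. A change of 2-fold or more without passing the test was found for 46 higher and 189 lower genes, and 121 of these 235 carry names of small RNAs, which can lie inside longer host genes. The share that rose varied with the vehicle level: 3.07% of genes at 1 to 2 FPKM in vehicle, 8.07% of those at 8 to 32 FPKM, 20.2% of those at 32 to 128 FPKM and 17.2% of those at 128 FPKM and above. The share that fell was 3.02% at 1 to 2 FPKM and 7.1% at 128 FPKM and above. Genes under 1 FPKM in vehicle entered only through their TCPOBOP value, so their share is not read. Over all 17909 genes above 0 FPKM in either group, 5.51% rose and 2.54% fell, with a median log2 ratio of -0.06, and the gene lists below are read against these shares.

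**Figure D1:**
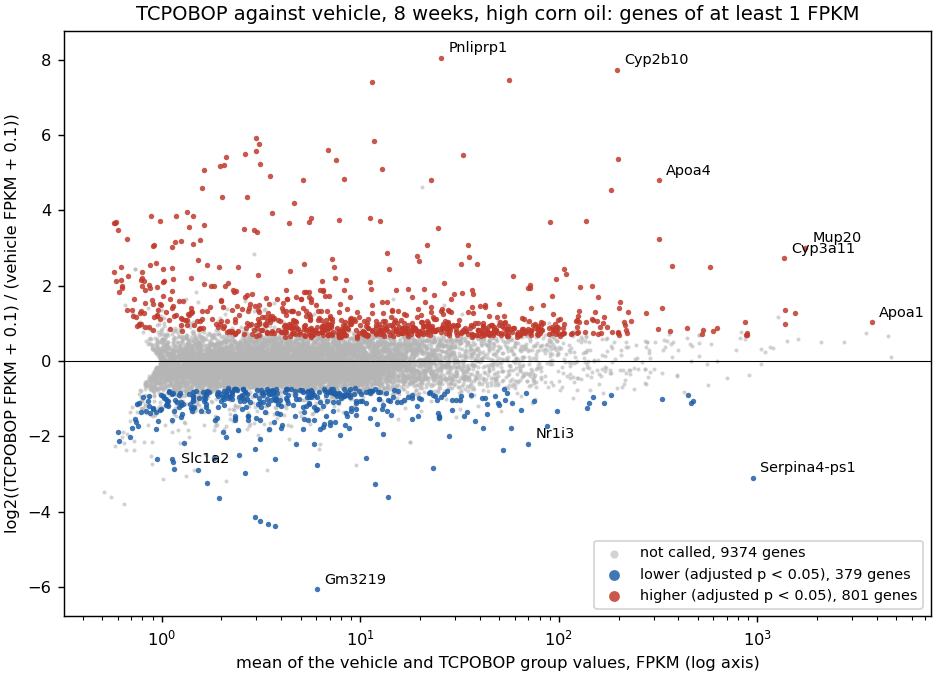
Each point is 1 of the 10554 genes, with the mean of its vehicle and TCPOBOP group values in FPKM on a log axis and its log2 ratio on the vertical axis, coloured by the authors' adjusted p. Rises reach 8.05 for Pnliprp1, the deepest fall is -6.06 for Gm3219, and Apoa1, Mup20 and Cyp3a11 lie among the most abundant genes that rose.

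The gene that rose most was Pnliprp1, which encodes a pancreatic lipase-related protein, from 0.0926 to 50.9 FPKM (log2 ratio 8.05). In the other male comparisons it also rose, from 0.182 to 18.5 FPKM at 8 weeks of low corn oil and from 0.104 to 17.2 FPKM at 2 weeks. Cyp2b10, the classical CAR target among the cytochromes P450, followed with a TCPOBOP value of 389 FPKM (log2 ratio 7.74), against 238 FPKM in the low corn oil TCPOBOP mice. Epithelial genes were among the next. Krt4, an epithelial keratin, rose from 0.0265 to 5.93 FPKM, and Sprr1a, a cornified envelope protein, from 0.0154 to 6.19 FPKM. Akr1b7, an aldo-keto reductase known for detoxifying lipid aldehydes, rose from 0.0179 to 5.21 FPKM, against 0.0482 to 2.42 FPKM at low corn oil. Meig1, a gene known from meiotic germ cells, was listed at 0 in vehicle and stood at 4.21 FPKM in TCPOBOP mice. Gm3776, listed under a gene model symbol, rose from 0.181 to 13.6 FPKM.

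Of the 15 largest rises, 13 were also called higher in both other male comparisons, and the exceptions were D14Ertd670e and Prss22. D14Ertd670e, an uncharacterised transcript, rose from 0.0362 to 22.9 FPKM (authors' edgeR adjusted p = 0.00547 in the authors' deposited table) and was listed at 0 in the vehicle and TCPOBOP males of the low corn oil and 2-week comparisons. Prss22, a serine protease of epithelia, was listed at 0 in vehicle and at 5.98 FPKM in TCPOBOP mice. It was listed at 0 in both 8-week low corn oil groups, and in 2-week males, where it was not called, its values were 7.66 and 11.6 FPKM. In 2-week females Prss22 also rose, from 0.00783 to 3.57 FPKM. Without values per mouse, how many of the 3 livers carry these transcripts cannot be read.

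The deepest falls included gene models and pseudogenes as well as named genes. Gm3219 fell from 12.0 to 0.0823 FPKM (log2 ratio -6.06), whereas its low corn oil values of 4.04 and 3.29 FPKM and its 2-week male values of 6.17 and 3.25 FPKM were not called different. Fam25c fell from 7.19 to 0.248 FPKM and Gm4841 from 6.61 to 0.235 FPKM, and neither was called in the other male comparisons. Susd4, a complement regulator with male-biased expression in mouse liver, fell from 6.01 to 0.220 FPKM and also fell at low corn oil, from 2.24 to 0.364 FPKM. Capn8, a calcium-dependent protease, fell from 2.75 to 0.282 FPKM, close to its low corn oil values of 3.03 and 0.223 FPKM, yet it stood at 0.720 and 0.544 FPKM in 2-week males without a call. Adh6-ps1, an alcohol dehydrogenase pseudogene, fell from 3.69 to 0.206 FPKM, AW549542 from 5.69 to 0.230 FPKM and Gm15401 from 21.5 to 2.16 FPKM, and each of these also fell in both other male comparisons. Serpina9, a serine protease inhibitor, fell from 10.7 to 1.48 FPKM. H2-T23, a non-classical class I histocompatibility gene, fell from 25.4 to 2.01 FPKM, and since this family has near-identical members its reads may be shared among them.

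**Figure D2:**
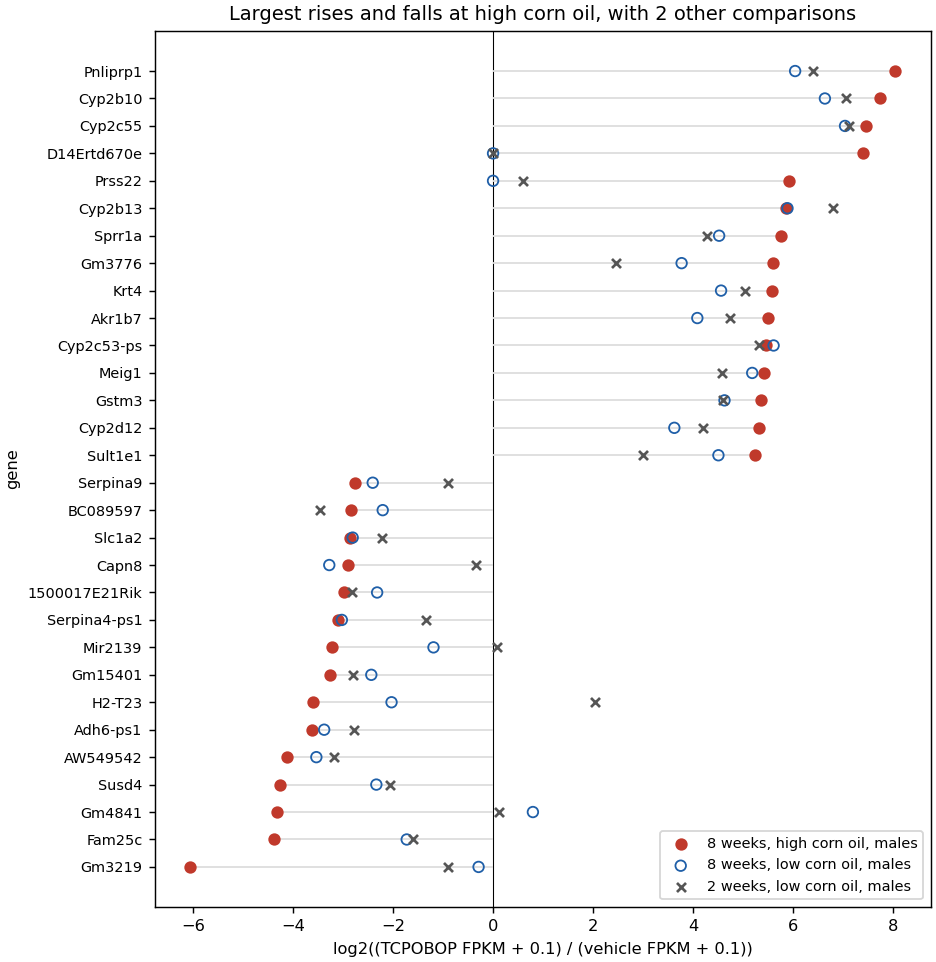
For the 15 largest rises and 15 largest falls (rows), filled circles show the log2 ratio of TCPOBOP over vehicle at 8 weeks of high corn oil, open circles that at 8 weeks of low corn oil and crosses that at 2 weeks in males; a gene listed at 0 in both groups is drawn at 0. D14Ertd670e, Prss22, Gm4841 and Gm3219 have open circles near or beyond 0, far from their filled circles.

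The most abundant genes that changed at least 2-fold included secreted proteins as well as enzymes. Apoa1, the main protein of high density lipoprotein, rose from 2469 to 5054 FPKM. Mup20, a major urinary protein known as the male pheromone darcin, rose from 387 to 3103 FPKM, whereas at 8 weeks of low corn oil its values of 725 and 1714 FPKM were not called different. In 2-week males Mup20 was not called, at 1249 and 2091 FPKM, and in 2-week females it rose from 7.43 to 79.9 FPKM. Reads of the Mup genes, which are near copies, may be split among them. Cyp3a11, a drug-oxidising P450, rose from 354 to 2360 FPKM. Hp and Hpx, which encode the haemoglobin and haem scavengers haptoglobin and hemopexin, rose from 899 to 2189 FPKM and from 779 to 1978 FPKM. Downward, Serpina4-ps1, a serpin pseudogene, fell from 1702 to 199 FPKM, and Itih3, an inter-alpha-trypsin inhibitor heavy chain, from 643 to 308 FPKM. Slc38a3, a glutamine transporter, fell from 631 to 293 FPKM, and Nudt7, a peroxisomal coenzyme A hydrolase, from 231 to 108 FPKM. Ttc39c fell from 196 to 82.4 FPKM and Ccbl1, a kynurenine aminotransferase, from 195 to 89.3 FPKM. Cyp2d13 fell from 445 to 220 FPKM, beside the rise of its relatives given next.

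The receptor's own transcript fell. Nr1i3 went from 115 to 25.2 FPKM (log2 ratio -2.19), against 171 to 31.0 FPKM at low corn oil. Among the 20 genes of the receptor and its partners 2 rose and 2 fell, with a median log2 ratio of -0.22. The cytosolic chaperones Hsp90aa1 and Hsp90ab1, members of the family that holds CAR in the cytoplasm, rose from 18.5 to 36.6 FPKM and from 73.4 to 124 FPKM, and were not called at low corn oil. Rxra, the partner receptor, stood at 24.7 and 23.1 FPKM and was not called, nor was the related xenobiotic receptor Nr1i2 at 21.8 and 19.9 FPKM.

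Drug-oxidising enzymes rose. Of 20 Cyp2b and Cyp2c genes 11 rose and 1 fell, with a median log2 ratio of 2.68, and 11 rose and none fell at low corn oil, where 4.98% of all genes rose and 3.76% fell. Cyp2c54 rose from 14.8 to 350 FPKM, Cyp2c50 from 12.9 to 167 FPKM and Cyp2c37 from 1.49 to 44.1 FPKM. The intestinal-type genes Cyp2c66 and Cyp2c65 were listed at 0 in vehicle and stood at 3.26 and 1.16 FPKM in TCPOBOP mice. Cyp2c29 rose from 175 to 980 FPKM. Cyp2c67 was the member that fell, from 70.5 to 39.4 FPKM, and reads of the near-identical Cyp2c genes may be split among them. Of 32 other genes of P450 families 1 to 3 and their electron donors 11 rose and 3 fell. Por, the reductase that passes electrons to all microsomal P450s, rose from 28.4 to 115 FPKM, and Cyb5r3, a cytochrome b5 reductase, from 42.2 to 90.8 FPKM. In the Cyp2d family Cyp2d12 rose from 0.273 to 14.8 FPKM and Cyp2d10 from 128 to 316 FPKM, while Cyp2d13 and Cyp2d40 fell, the latter from 16.6 to 5.71 FPKM. Cyp2e1, known for oxidising ethanol, stood at 627 FPKM in both groups and Cyp2u1 fell from 9.70 to 2.05 FPKM.

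Cyp2a5, the mouse coumarin hydroxylase, and Cyp2a4, a steroid hydroxylase, rose together but from different levels. Cyp2a5 rose from 19.3 to 256 FPKM (log2 ratio 3.73) and Cyp2a4 from 0.354 to 6.87 FPKM (log2 ratio 3.94). The 250 bases before each start, given by RefSeq on GRCm38.p6, are shown because these relatives on 1 chromosome are near copies: aligned at a shift of 1 base, 245 of 249 bases are the same, or 98.4%. Reads of such near copies can be hard to separate, so the split of the rise between both genes is uncertain. Capitals mark the TATA box (TATAAA), which, counting both strands and 50 bases more after the start, lies in 14.2% of the 27025 RefSeq promoters, in 7.4% of the 7826 matched to genes of at least 1 FPKM and in 11.9% of those of the genes that rose. Both windows lie on the plus strand, at chr7:26306942-26307191 for Cyp2a4 and chr7:26835089-26835338 for Cyp2a5.
Cyp2a4: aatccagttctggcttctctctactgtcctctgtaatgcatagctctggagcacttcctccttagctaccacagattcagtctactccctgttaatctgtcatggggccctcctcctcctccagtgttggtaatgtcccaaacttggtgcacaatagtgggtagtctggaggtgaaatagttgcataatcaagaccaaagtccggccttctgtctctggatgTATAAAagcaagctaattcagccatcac
Cyp2a5: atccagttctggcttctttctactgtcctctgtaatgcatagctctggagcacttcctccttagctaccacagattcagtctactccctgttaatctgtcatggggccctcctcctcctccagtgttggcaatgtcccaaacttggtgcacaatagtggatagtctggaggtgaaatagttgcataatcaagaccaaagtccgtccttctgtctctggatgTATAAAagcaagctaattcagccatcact

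Conjugating enzymes rose beside them. Of 22 glutathione transferases, which attach glutathione to electrophiles, 11 rose and none fell, with a median log2 ratio of 0.94. Gstm1 rose from 111 to 632 FPKM, Gstt3 from 4.52 to 38.8 FPKM and Gsta1 from 0.0972 to 3.92 FPKM, while Gstp1, an abundant form, stood at 270 and 232 FPKM without a call. Reads of the Gstm genes, near copies in 1 cluster, may be split. Of 15 sulfotransferases 7 rose and none fell, among them the oestrogen sulfotransferase Sult1e1 from 0.0665 to 6.18 FPKM and Sult1a1 from 14.4 to 50.5 FPKM. Of 20 glucuronosyltransferases and genes of their sugar supply 5 rose and none fell. Ugt1a1, the bilirubin-conjugating enzyme, rose from 3.57 to 9.15 FPKM. Ugt2b37, at 0.351 and 1.93 FPKM, rose here and was not called at low corn oil, at 0.122 and 0.391 FPKM. Of 19 carboxylesterases and relatives 7 rose and 2 fell. Ces2a rose from 60.9 to 580 FPKM and Ephx1, the microsomal epoxide hydrolase, from 51.5 to 203 FPKM, while Ces4a fell from 2.19 to 0.404 FPKM.

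Of 33 aldehyde and carbonyl enzymes 7 rose and 2 fell. Aldh1a1, a retinaldehyde dehydrogenase, rose from 74.2 to 241 FPKM, and its relative Aldh1a7 from 9.22 to 55.3 FPKM. Adh4, an alcohol dehydrogenase that also acts on retinol, fell from 67.5 to 31.3 FPKM, as did the aldehyde oxidase Aox3, from 196 to 101 FPKM. Of 26 peroxisomal and retinoid genes 3 rose and 3 fell. The retinol dehydrogenases Rdh16 and Rdh9 fell from 10.8 to 3.23 FPKM and from 3.47 to 1.21 FPKM. Among 18 antioxidant targets of Nrf2 5 rose and none fell. They were the sulfiredoxin Srxn1, the peroxiredoxin Prdx1, the transketolase Tkt and both ferritin genes, with Fth1 at 87.3 and 217 FPKM and Ftl1 at 683 and 1093 FPKM. Nqo1 and Gclc, classical targets of this factor, stood at 0.480 and 0.726 FPKM and at 55.4 and 35.9 FPKM and were not called.

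Transporters and bile acid genes moved in both directions. Of 16 export pumps 3 rose and 1 fell: Abcc4 rose from 0.340 to 2.71 FPKM and Abcc3, a basolateral pump of conjugates, from 22.7 to 62.1 FPKM. The bile salt pump Abcb11 stood at 53.6 and 57.9 FPKM and was not called. Of 18 uptake transporters 8 rose and 3 fell. Slc10a1, the sodium-coupled bile acid importer, rose from 45.7 to 95.0 FPKM, and Slco1a4 from 4.13 to 13.7 FPKM, while the organic anion transporter Slc22a7 fell from 22.2 to 10.9 FPKM. Of 19 genes of bile acid synthesis and its control 1 rose and 2 fell. Cyp7a1, the rate-limiting enzyme, fell from 8.66 to 3.50 FPKM and was at 5.78 and 6.30 FPKM, without a call, at 8 weeks of low corn oil. It also fell in 2-week males, from 10.6 to 2.91 FPKM. Cyp39a1, an oxysterol hydroxylase, rose from 0.191 to 1.4 FPKM, and Fgfr4, the receptor for the gut signal that restrains the pathway, fell from 30.4 to 16.3 FPKM. In haem synthesis Alas1, the rate-limiting enzyme, stood at 91.6 and 107 FPKM without a call, whereas at low corn oil it rose from 11.1 to 73.6 FPKM, so that its vehicle values differ between the regimens more than its TCPOBOP values.

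Genes of mitosis rose from low levels. Of 40 G2 and mitosis genes 21 rose and none fell, and 5 of the 40 reached 1 FPKM. Ube2c, a ubiquitin-conjugating enzyme of the anaphase complex, rose from 0.0800 to 0.965 FPKM, and Ect2, which directs cytokinesis, from 0.165 to 0.801 FPKM. Cdk1, the mitotic kinase, rose from 0.126 to 0.523 FPKM, Plk1 from 0.203 to 0.667 FPKM and Hmmr from 0.0138 to 0.291 FPKM. Mki67, the proliferation marker, rose from 0.180 to 0.494 FPKM, against 0.135 to 0.743 FPKM at low corn oil. Foxm1, a transcription factor of this programme, stood at 0.161 and 0.242 FPKM, Ccna2 at 0.489 and 0.621 FPKM and Birc5 at 0.499 and 0.564 FPKM, and none of these was called. The median log2 ratio of the list was 1.00, but 0.26 with 1 FPKM added instead of 0.1, since nearly all members lie near the added value. In the authors' deposited table the median log2 fold change of the list was 1.57. At low corn oil 23 of the 40 rose, where 4.98% of all genes did, and in 2-week males 19 rose, where 3.42% did. In 2-week females, where 4.67% of all genes rose, 1 of the 40 rose and 1 fell. G1 and S phase genes were called less widely at high corn oil, with 5 of 37 higher and none lower. Among them were Ccnd1, which encodes cyclin D1, from 2.31 to 5.89 FPKM and the ribonucleotide reductase subunit Rrm2 from 0.247 to 0.883 FPKM.

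The promoters of these mitotic genes are shown because they share short motifs that the choice of the list did not use. The motif of the cell cycle homology region (CHR, TTTGAA) and the CCAAT box were searched on both strands of the 300 bases around each gene's RefSeq start, 250 before and 50 after it. The CHR letters were found in 21 of 33 promoters of the list (63.6%), in 13 of the 16 promoters of members that rose (81.2%) and in 18.1% of all 27025 promoters, or 11.6% of the 7826 of genes of at least 1 FPKM. CCAAT was found in 25 of the 33 (75.8%), in 15 of the 16 (93.8%) and in 37.9% of all promoters, or 38.7% of the 7826. Both were present in 19 of 33, or 57.6%, against 7.12% of all promoters and 4.63% of the 7826. The windows shown are those of the 3 members with the largest log2 ratios among the genes that rose and hold both motifs, so that they hold them is no finding. Capitals mark both motifs on either strand in the 250 bases before the start of Cdc20 (chr4:118437344-118437593, minus strand), Ube2c (chr2:164769679-164769928, plus strand) and Ect2 (chr3:27153879-27154128, minus strand), on GRCm38.p6. Cdc20 is the activator of the anaphase complex with which Ube2c works, and its own level rose from 0.219 to 2.67 FPKM.
Cdc20: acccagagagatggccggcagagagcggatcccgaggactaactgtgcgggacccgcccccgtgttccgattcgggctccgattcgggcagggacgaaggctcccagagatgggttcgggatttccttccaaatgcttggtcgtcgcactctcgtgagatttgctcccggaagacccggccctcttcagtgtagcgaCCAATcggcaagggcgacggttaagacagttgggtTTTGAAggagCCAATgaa
Ube2c: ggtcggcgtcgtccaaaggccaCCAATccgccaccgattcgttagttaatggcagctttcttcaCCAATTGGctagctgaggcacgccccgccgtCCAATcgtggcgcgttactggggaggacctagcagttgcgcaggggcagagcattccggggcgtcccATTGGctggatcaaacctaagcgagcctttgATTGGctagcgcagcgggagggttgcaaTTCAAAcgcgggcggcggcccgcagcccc
Ect2: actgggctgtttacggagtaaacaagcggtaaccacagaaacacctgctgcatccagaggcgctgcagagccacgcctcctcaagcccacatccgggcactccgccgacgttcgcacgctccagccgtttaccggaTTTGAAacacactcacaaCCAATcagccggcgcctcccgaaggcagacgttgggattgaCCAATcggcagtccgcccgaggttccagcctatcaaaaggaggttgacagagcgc

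The same search was made for nuclear receptor letters, for which the 7826 promoters of genes of at least 1 FPKM are the nearest comparison. The receptor core AGGTCA lay in 13% of the 607 promoters matched to genes that rose, in 13.2% of the 280 matched to genes that fell, in 12.9% of the 7826 and in 16% of all promoters. The direct repeat that holds this core 2 times with a gap of 4 bases, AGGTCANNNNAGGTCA, was found in 3 of all 27025 promoters and in 0 of the 607. The core of the antioxidant element, TGACNNNGC, lay in 16% of the promoters of genes that rose, 11.1% of those that fell, 15.1% of the 7826 and 12.5% of all. These windows say nothing of distal sites.

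Some genes of growth arrest rose beside the mitotic genes. Of 28 such genes and p53 targets 7 rose and 1 fell, with a median log2 ratio of 0.26. Their summed level was 154 against 152 FPKM. Mdm2, at 15.9 and 15.1 FPKM, and Bax, at 24.8 and 29.3 FPKM, were not called. Gadd45a, a stress-induced growth regulator, rose from 4.18 to 18.2 FPKM, and Cdkn1a, the cell cycle inhibitor p21, from 1.47 to 4.07 FPKM. Gadd45g moved the other way, from 64.4 to 18.6 FPKM, whereas at 8 weeks of low corn oil it was at 7.48 and 26.5 FPKM without a call. In 2-week males Gadd45g was not called, at 17.9 and 8.01 FPKM, and in 2-week females it fell from 11.2 to 2.67 FPKM. Of 23 oncofetal and progenitor genes 5 rose and 2 fell. Sox4, a developmental transcription factor, rose from 0.317 to 1.73 FPKM. The imprinted long RNAs Meg3 and Rian, neighbours transcribed in 1 direction, fell from 5.11 to 1.14 FPKM and from 6.19 to 1.83 FPKM, while the imprinted gene Peg3 rose from 7.59 to 18.5 FPKM. Afp, the fetal albumin counterpart, stood at 0.152 and 0.119 FPKM without a call.

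Genes of lipoprotein proteins rose. Of 20 members 9 rose and none fell, with a median log2 ratio of 0.59. Besides Apoa1 and Apoa4, which went from 22.0 to 614 FPKM, these were Apom from 78.6 to 167 FPKM, Apof from 79.6 to 166 FPKM, Apoc3, an inhibitor of triglyceride clearance, from 567 to 1162 FPKM, Apoc1, Apoc2, Apoh and the assembly protein Mttp from 15.6 to 30.1 FPKM. Apoe, at 3492 and 5570 FPKM, was not called. At low corn oil 6 rose and 1 fell. In the authors' deposited comparison of the TCPOBOP groups, which shares its mice with both 8-week comparisons, 11 of the 20 were higher at high than at low corn oil, where 4.78% of all genes were. The vehicle mice differed too: Apoa1 was higher at high than at low corn oil, at 2469 against 1395 FPKM. Apoa4 was lower there, at 22.0 against 30.1 FPKM, and these vehicle differences were not tested.

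Genes of lipid uptake and storage rose in part. Of 30 members 8 rose and 2 fell. Vldlr, a lipoprotein receptor, rose from 0.497 to 1.43 FPKM, and Cd36, a fatty acid transporter, from 1.51 to 4.36 FPKM. Cd36 reached 12.0 FPKM in the low corn oil TCPOBOP mice, against 2.60 FPKM in low corn oil vehicle. It was called lower at high than at low corn oil in the authors' deposited comparison of both TCPOBOP groups. Fabp5, a fatty acid binding protein, fell from 20.7 to 5.36 FPKM, and was not called at 8 weeks of low corn oil at 7.42 and 5.74 FPKM. In 2-week males Fabp5 was not called, at 7.27 and 6.07 FPKM, and in 2-week females it fell from 20.8 to 6.56 FPKM. Of 30 fatty acid synthesis genes 4 rose and none fell, and all 4 lengthen or desaturate fatty acids: Elovl1, Elovl2, Elovl6 and Fads1, the last from 55.1 to 107 FPKM. Fasn, the fatty acid synthase itself, stood at 29.9 and 29.8 FPKM and Scd1 at 278 and 297 FPKM, without calls. Of 32 genes of fatty acid oxidation and ketone synthesis 1 rose and none fell, a share near that of all genes. Fgf21, a fasting hormone, was not called at 1.36 and 0.347 FPKM.

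Genes of sugar use and of sterol synthesis rose in part. Of 27 glucose and glycogen genes 6 rose and 1 fell. Khk, the fructokinase, rose from 104 to 235 FPKM, and was not called at 8 weeks of low corn oil at 112 and 135 FPKM. In 2-week males Khk was not called, at 122 and 177 FPKM, and in 2-week females it rose from 105 to 191 FPKM. Pklr, the liver pyruvate kinase, rose from 20.1 to 49.5 FPKM. Of the glycogen phosphatase subunits Ppp1r3g rose from 0.211 to 1.00 FPKM and Ppp1r3c fell from 10.1 to 3.11 FPKM. Of 23 cholesterol synthesis genes 3 rose and none fell, among them Cyp51, of the late steps from lanosterol, from 9.08 to 16.1 FPKM and Tm7sf2 from 42.5 to 73.2 FPKM. Of 19 clock genes 2 fell and none rose, with a median log2 ratio of -0.49. Nr1d1, the repressor REV-ERBα, fell from 26.9 to 11.6 FPKM and Nfil3 from 14.4 to 7.94 FPKM. Dio1, which activates thyroid hormone, rose from 5.34 to 34.1 FPKM and was the 1 member called of 12 in its axis.

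Genes of the pericentral zone, the hepatocytes around the central vein that live under Wnt signalling, fell more often than they rose. Of 27 members 10 fell and 6 rose, with a median log2 ratio of -0.54, while at low corn oil 15 fell and 6 rose. Lgr5, a receptor that amplifies Wnt signals, fell from 0.562 to 0.0656 FPKM, Notum, a secreted Wnt inhibitor, from 12.7 to 3.16 FPKM and Axin2, a Wnt target, from 1.22 to 0.433 FPKM. Rnf43, which removes Wnt receptors, fell from 3.35 to 1.75 FPKM. Glul, glutamine synthetase, stood at 30.1 and 24.5 FPKM without a call here, and fell from 31.9 to 15.3 FPKM at low corn oil. The members that rose included the enzymes Cyp2a5 and Aldh1a1 given above and Lect2, a secreted factor, from 16.5 to 57.0 FPKM. Wnt2, a ligand made by endothelium of this zone, fell from 1.38 to 0.484 FPKM. Of 25 periportal genes 2 rose and 2 fell, among them Cdh1, E-cadherin, from 3.38 to 7.82 FPKM. Of 28 genes of Wnt, Hippo and EGF signalling 5 fell and 1 rose. Egfr, a growth factor receptor, fell from 41.2 to 16.7 FPKM and was not called at 8 weeks of low corn oil at 31.0 and 21.1 FPKM. In 2-week males Egfr was not called, at 22.8 and 31.7 FPKM, and in 2-week females it fell from 23.3 to 5.07 FPKM. Ctgf, a Hippo pathway target, rose from 0.572 to 1.68 FPKM.

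Sex-biased genes are controlled in mouse liver by the pattern of growth hormone secretion. Of 40 female-biased genes 16 rose and 1 fell in these males, with a median log2 ratio of 0.49 and a summed level of 41.8 against 527 FPKM, most of it Cyp2b10. Sult2a1, a hydroxysteroid sulfotransferase, rose from 0.169 to 2.09 FPKM, Cyp2b9 from 3.17 to 24 FPKM and Rarres1 from 10.6 to 31.7 FPKM, while Sall1 fell from 5.06 to 2.43 FPKM. Several of these are enzymes of the CAR-responsive families, so the lists overlap. Of 34 male-biased genes 8 fell and 3 rose, with a median log2 ratio of -0.21 but a summed level of 4438 against 7804 FPKM. Mup20, given above at 387 and 3103 FPKM, was the most abundant member that rose. Hsd3b5, a steroid dehydrogenase, fell from 56.7 to 18.8 FPKM and Obp2a from 2.05 to 0.235 FPKM. Bcl6, a repressor of female-biased genes, fell from 12.3 to 4.64 FPKM, against 21.6 to 4.24 FPKM at low corn oil. Cib3 rose from 4.22 to 23.6 FPKM and Moxd1 from 0.0658 to 2.28 FPKM, both male-biased. Of 23 growth hormone signalling genes 1 rose and 1 fell.

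Acute phase genes, which encode secreted defence proteins, rose more often than they fell. Of 31 acute phase genes 9 rose and 2 fell. Orm3, an orosomucoid, rose from 7.32 to 62.2 FPKM, Lcn2, an iron-sequestering defence protein, from 7.21 to 27.4 FPKM and Crp from 43.4 to 122 FPKM. S100a8, a calcium-binding protein of neutrophils, rose from 1.70 to 23.4 FPKM. Hamp2, a hepcidin relative, rose from 0.549 to 8.16 FPKM, whereas Hamp itself, the iron hormone, stood at 1016 and 790 FPKM without a call. Hamp2 was not called at low corn oil, at 3.58 and 6.25 FPKM. Nor was it called in 2-week males, at 7.98 and 3.52 FPKM, or in 2-week females, at 167 and 117 FPKM. Saa1 and Saa2, the serum amyloids, were not called, at 359 and 438 FPKM and at 193 and 251 FPKM. Their values in the low corn oil groups were far lower, at 18.8 and 39.3 FPKM for Saa1 and at 6.09 and 20.4 FPKM for Saa2. Hp was also lower at low corn oil within each treatment, with 355 FPKM in vehicle and 952 FPKM in TCPOBOP mice. Unlike Saa1 and Saa2, its low corn oil TCPOBOP value lay above its high corn oil vehicle value of 899 FPKM. These levels differ between the regimens in the vehicle mice as well, a difference for which no test is given. Of 32 complement and coagulation genes 5 rose and none fell, among them F10 from 70.9 to 142 FPKM and Mbl2 from 95.0 to 201 FPKM. Of 20 serpins 3 rose and 2 fell. Serpina6, the corticosteroid carrier, rose from 35.2 to 159 FPKM and Serpina1b, an antitrypsin, from 923 to 1836 FPKM.

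Of 25 hormones and carriers made by liver 7 rose and 2 fell. Gdf15, a stress hormone that curbs appetite, rose from 3.81 to 45.6 FPKM, Fst, an activin antagonist, from 2.20 to 7.32 FPKM and Lepr, the leptin receptor, from 0.166 to 1.08 FPKM. Rbp4, the plasma retinol carrier, rose from 441 to 817 FPKM, and Inhbe, an activin subunit, fell from 13.9 to 5.11 FPKM. Of 29 chaperone and ER stress genes 2 rose and 3 fell. Trib3 rose from 1.44 to 3.48 FPKM, while Herpud1, of ER-associated degradation, fell from 69.0 to 30.5 FPKM and Ern1, the ER stress sensor IRE1, from 7.97 to 4.45 FPKM.

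**Figure D3:**
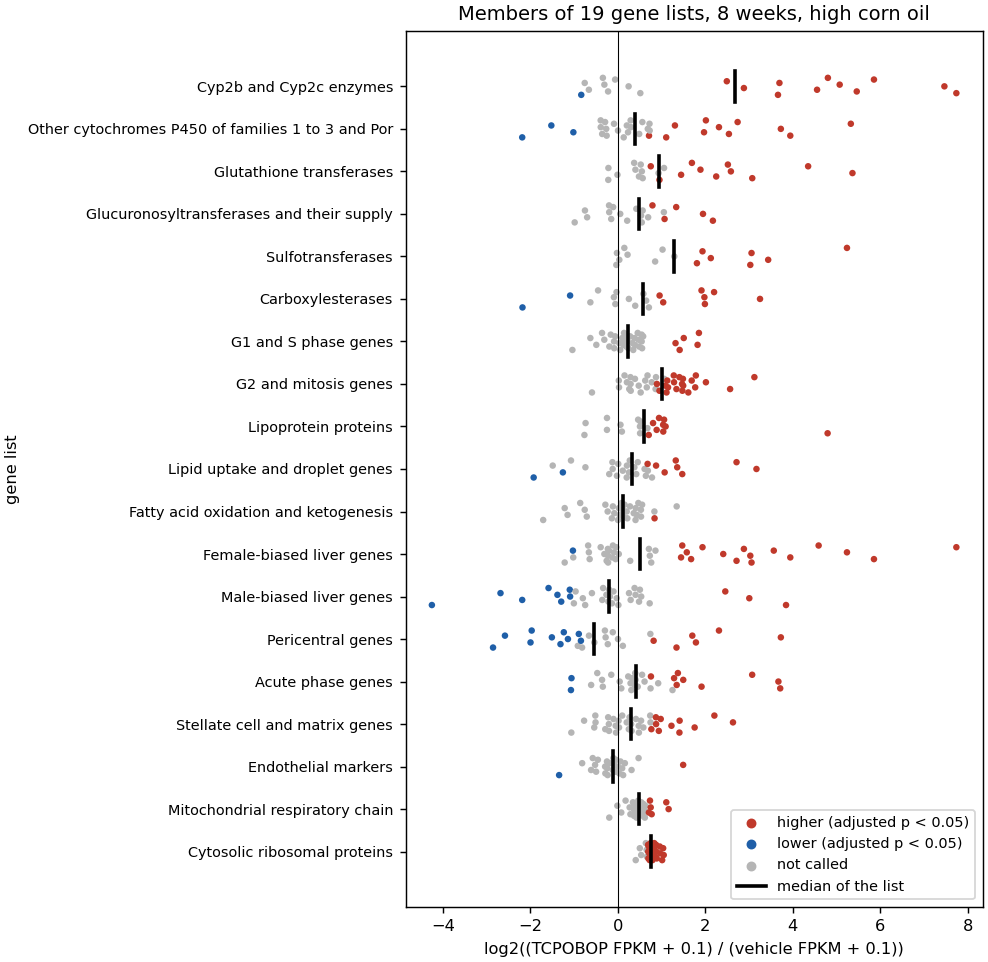
Each row is 1 of 19 gene lists and each point 1 member above 0 FPKM in either group, at its log2 ratio of TCPOBOP over vehicle, coloured by the authors' adjusted p, with the list median as a black bar. The Cyp2b and Cyp2c medians lie farthest right at 2.68, pericentral genes lie mostly left with a median of -0.54, and the ribosomal protein genes form a narrow group about 0.77.

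Few markers of other liver cells passed the test, apart from matrix genes. The defining Kupffer cell genes Clec4f and Cd5l stood at 39.8 and 42.3 FPKM and at 38.3 and 40.4 FPKM, and 4 of the 27 macrophage markers rose and none fell (320 and 369 FPKM summed). Those 4 were Gpnmb from 0.0308 to 0.520 FPKM and Trem2 from 0.232 to 0.664 FPKM, known from lipid-laden macrophages, with Cx3cr1 and Lyz2. Of 38 stellate cell and matrix genes 11 rose and none fell, with a summed level of 219 against 230 FPKM. They included the matrix proteases Mmp12 from 0.0150 to 0.612 FPKM and Mmp13 from 0.0160 to 0.208 FPKM, and Vim, the filament protein vimentin, from 4.58 to 9.13 FPKM. The defining stellate genes Lrat, Des, Reln and Pdgfrb lay between 1.11 and 3.23 FPKM in either group and were not called. In the authors' deposited comparison of both TCPOBOP groups, 10 of the 38 were lower at high than at low corn oil and 1 was higher, where 5.07% of all genes were lower. Of 27 endothelial markers 1 rose and 1 fell (258 and 240 FPKM summed), the riser being Tie1 from 5.97 to 17 FPKM. In the same comparison of both TCPOBOP groups 16 of these 27 were lower at high corn oil and none was higher, against the same 5.07% of all genes. The endothelial genes Stab2, Kdr, Clec4g and Pecam1 were also lower at high corn oil in vehicle mice. Clec4g, for example, stood at 61.1 against 87.1 FPKM in vehicle. The same held in vehicle mice for the defining stellate genes, with Reln at 3.23 against 5.61 FPKM. These vehicle differences were not tested. Of 20 cholangiocyte markers 2 rose, led by Prom1 from 0.0354 to 3.16 FPKM, while the defining genes Krt19, Krt7, Epcam and Sox9 stayed under 1 FPKM in both groups and were not called. Of 23 lymphocyte and neutrophil markers 2 rose, S100a8 and Mpo. The haemoglobin genes Hba-a1 and Hbb-b1 stood at 15.2 and 20.6 FPKM and at 18.4 and 28.7 FPKM without calls. Whether cell makeup contributes to these changes was not tested.

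Interferon genes gave a mixed set. Of 36 members 6 rose and 1 fell, whereas 15 rose and none fell at low corn oil. Isg15, a ubiquitin-like interferon product, rose from 2.02 to 6.55 FPKM and Rsad2, an antiviral enzyme, from 0.970 to 3.76 FPKM. H2-K1, a class I histocompatibility gene, rose from 32.9 to 180 FPKM, and its reads may be shared as for H2-T23. It was not called at low corn oil, at 43.4 and 135 FPKM. Nor was H2-K1 called in 2-week males, at 92.3 and 69.5 FPKM, or in 2-week females, at 148 and 164 FPKM. Irf9, the DNA-binding part of the interferon-activated complex, went in opposite directions: it fell from 44.9 to 11.2 FPKM here (authors' edgeR adjusted p = 0.0251 in the authors' deposited table) and rose from 8.29 to 28.5 FPKM at low corn oil (authors' edgeR adjusted p = 0.0172 in the authors' deposited table). The vehicle values of the regimens thus lay farther apart than their TCPOBOP values.

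Ribosomal protein genes rose together by a small amount. Of 36 genes of cytosolic ribosomal proteins 30 rose and none fell, with log2 ratios between 0.41 and 1.05 and a median of 0.77, or 1.7-fold, and all 36 ratios lay above 0. Rpl23 rose from 35.0 to 72.4 FPKM, Rplp1 from 140 to 287 FPKM and Rps6, a target of growth signalling kinases, from 41.1 to 70.3 FPKM. Rps15, at 91.4 and 144 FPKM, was among the 6 not called. Together these genes made up 1.17% of all FPKM in vehicle and 1.66% in TCPOBOP mice. Taken by symbol, 63 of all 82 such genes rose and none fell. At low corn oil 1 of the 36 rose, with a median log2 ratio of 0.63. In 2-week males, where 3.42% of all genes rose, 2 of 36 rose with a median of 0.46, and in 2-week females, where 4.67% of all genes rose, 0 of 36 rose in the authors' edgeR test with a median of 0.26. The medians of the male comparisons thus lie closer than the counts of calls. Between the TCPOBOP groups, 20 of the 36 were higher at high than at low corn oil in the authors' deposited table. Their summed level was also higher in high than in low corn oil vehicle mice, at 2065 against 1572 FPKM, a difference that was not tested. With adjusted p under 0.01, the share that rose here was 47.2% in place of 83.3%. Of 30 nuclear genes of the mitochondrial respiratory chain 6 rose and none fell, with a median of 0.47, among them Ndufa4 from 64.4 to 139 FPKM and Cox4i1 from 93.2 to 155 FPKM.

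**Figure D4:**
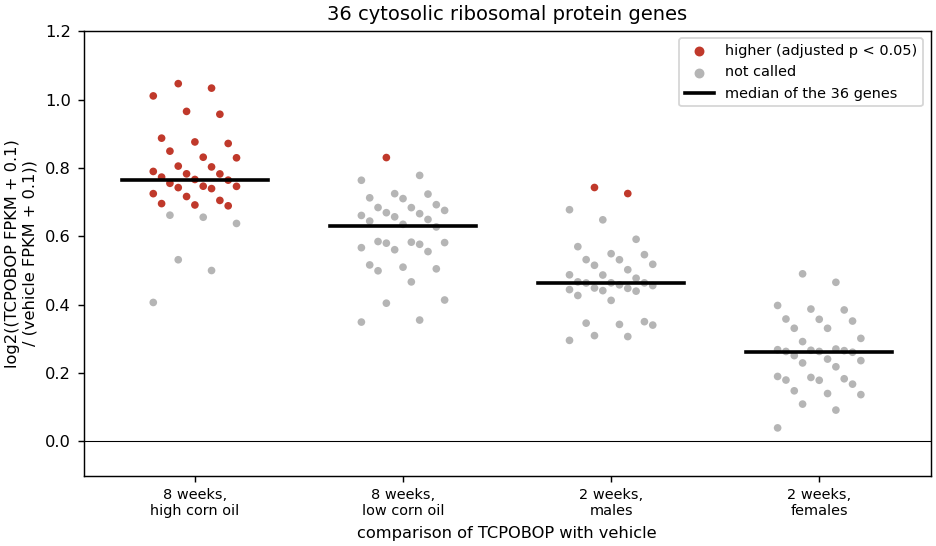
Each point is 1 of 36 ribosomal protein genes at its log2 ratio of TCPOBOP over vehicle in each of 4 comparisons, red where the authors' adjusted p was under 0.05, with the median as a black bar. All points lie above 0, and the medians are 0.77, 0.63, 0.46 and 0.26 from left to right.

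Short genes were called higher more often than long ones in the high corn oil comparison. Gene spans were found for 10132 of the 10554 genes, or 96%. Split by span into 5 bins of about equal size, 11.9% of genes rose in the shortest bin, with spans up to 6.7 kb, and in the following bins 7.9%, 7.41%, 5.82% and 5.72%. Genes that fell ran the other way, from 2.86% of the shortest to 4.74% of the longest bin. At low corn oil the share that rose was 5.07% in the shortest and 6.7% in the longest bin, and the share that fell was 6.46% and 3.93%. In 2-week males the share that rose was 5.81% in the shortest bin, then 4.47%, 4.77% and 2.78%, and 4.27% in the longest, while 3.13% of the shortest and 3.08% of the longest genes fell. Ribosomal protein genes, apolipoprotein genes and respiratory chain genes are short as a rule, and the part of gene span in their counts was not tested. The summed FPKM over all genes was also higher in TCPOBOP mice, by 1.21-fold.

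**Figure D5:**
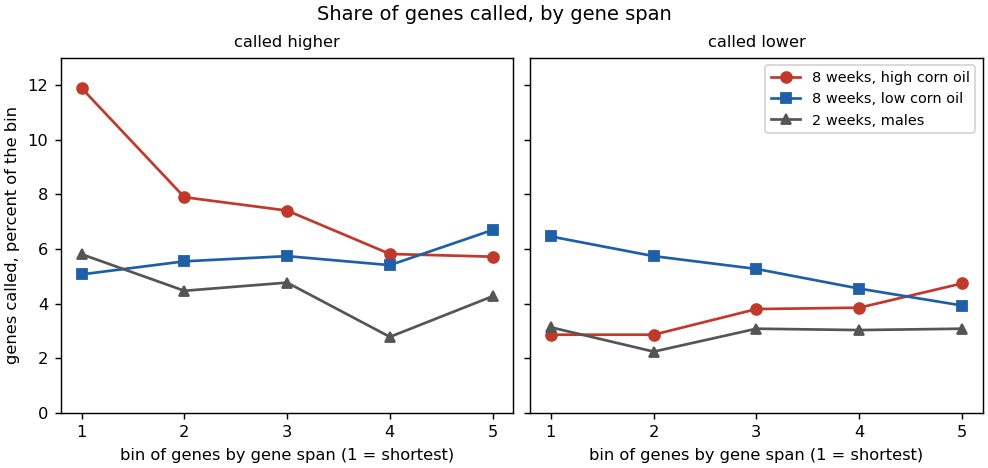
Percent of genes called higher (left) and lower (right) in each of 5 bins of genes by span, from the shortest (1) to the longest (5), for 3 comparisons of TCPOBOP with vehicle in males. At high corn oil the share called higher declines from 11.9% to 5.72%.

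Part of the response recurred in mice that share no library with it. Of the 801 genes that rose, 354 (44.2%) also rose at 8 weeks of low corn oil. These are 57.5% of the 616 that rose there, among 10892 genes of at least 1 FPKM. Of the 379 that fell, 183 (48.3%) also fell there, or 32% of 572. In 2-week males 281 of the 801 rose (35.1%, or 61.6% of 456), and in 2-week females 344 (42.9%, or 49.1% of 701). Falls recurred for 112 of the 379 in 2-week males (29.6%, or 36% of 311) and for 129 in 2-week females (34%, or 23.2% of 557). The 2-week counts were taken among 10489 genes of at least 1 FPKM in males and 10877 in females. Over the wider set of all genes above 0 FPKM, 4.98% rose and 3.76% fell at low corn oil. In that wider set the share that rose was 3.42% in 2-week males and 4.67% in 2-week females. Genes called in neither low corn oil male comparison made up 47.6% of the rises and 46.4% of the falls. Of the genes of at least 1 FPKM, only 3 were called in opposite directions in both 8-week comparisons: Cyp2d11 rose here and fell there, while Irf9 and Tbc1d5 fell here and rose there. Rian fell here and rose in 2-week males, and Cdkn1a rose here and fell in 2-week females. Whether a gene called in just 1 comparison responds differently in the others was not tested.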

How the data were processed

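Stranded libraries of polyadenylated nuclear RNA were processed with TopHat2 2.0.13, featureCounts 1.4.6-p5, the mm9 build and edgeR (version not given), as the submitters' processing notes list them. The deposited FPKM values are 1 per group, made by the authors over the gene body, per the file headers. How the mice of a group were combined is not stated. The 2 value columns without a map of their own are exact repeats of the columns of both 8-week TCPOBOP groups and were not used. The deposited fold change is the authors' signed score, and the deposited p-value is the authors' edgeR value, whose pile-up at 1 is that of adjusted values. The edgeR and limma fits of the design need values per library and were not made, so the calls are the authors' own. Per the labels each library is another mouse, so the p-values measure the spread between mice.

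Log2 ratios used a pseudocount of 0.1 FPKM and genes of at least 1 FPKM in either group. A call is an adjusted p under 0.05 with the sign of the fold. Python 3.11.15, pandas 2.3.3, numpy 2.4.6 and matplotlib 3.10.9 were used, and the functions were tested on simulated data. All 49 gene lists (1145 genes), the members and the comparisons were chosen with earlier results of these data known. Named genes were, by rule, the 15 largest rises and falls, the 8 most abundant changes of at least 2-fold in each direction, and in each list the 6 called members of largest change and the 2 uncalled members of highest level, always with Cyp2b10 and Nr1i3, which gave 310 genes. Other list members, among them all under 1 FPKM, were named after their values were seen. Some members are not reported here by name, though counts and medians include them. Lists were read over genes above 0 FPKM, with no set test. Promoters are RefSeq windows on GRCm38.p6, matched by symbol at the start listed before any others of a gene, and gene spans come from GENCODE M21 on GRCm38, another build than the counts, so they are used as lengths alone. The series' design text gives a younger age and a shorter treatment for all mice than the sample labels, which were followed. Alternatives were other pseudocounts, level limits, thresholds, the deposited fold and centring. Added after the data were seen were the ribosomal protein genes by symbol and at a stricter threshold, and the 5 bins by gene span.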

Additional observations from a re-analysis of the deposited data

How the results depend on the processing

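No paired analysis was possible because the table holds no column of a single library, and for the same reason leaving out each replicate and the planned replicate block were not run. The counts of 801 rises and 379 falls became 495 and 171 at an adjusted p under 0.01. With at least 5 FPKM in either group the falls numbered 212, while 612 genes rose, and without a level limit 987 rose and 454 fell. With a pseudocount of 1 FPKM the genes at least 2-fold changed by ratio numbered 284 higher and 198 lower, in place of 434 and 404. With 0.01 FPKM they numbered 459 and 431, and by the authors' deposited fold change 511 and 387. The share of ribosomal protein genes that rose was 47.2% at an adjusted p under 0.01 and 76.8% when all were taken by symbol. Of the 310 named genes, the 217 that passed the test kept their direction with a pseudocount of 1 FPKM and with the deposited fold change. Of those that did not pass, 3 with ratios near 0 (Akr1c6, Ecm1 and Ptprc) changed sign with the deposited fold change. List medians moved by at least 0.1 in 14 of 49 lists with a pseudocount of 1 FPKM and in 11 of 49 with the deposited fold change, for example from 2.68 to 1.60 and 3.33 for the Cyp2b and Cyp2c enzymes. The group values carry no depth, so no limit on low genes can be computed from counts.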

Other observations

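Tbc1d5, a regulator of vesicle traffic back to the Golgi, fell from 2.50 to 0.935 FPKM at high corn oil and rose from 1.13 to 2.66 FPKM at low corn oil. Cyp2d11 rose from 0.326 to 1.57 FPKM at high and fell from 1.66 to 0.877 FPKM at low corn oil. Together with Irf9 these are the genes with calls of opposite direction in both 8-week comparisons.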
